A study of Mus musculus with 9 samples.

Results

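Keratins are the intermediate filament proteins of epithelial cells. A filament is built from pairs of an acidic type I and a basic type II keratin, and the pair that a cell makes is used to tell its layer. Basal cells, among them the myoepithelial cells (MECs) that wrap the acini of a salivary gland, are marked by the type II keratin 5 with the type I keratins 14, 15 and 17, and luminal cells, which line the ducts and acini, by the type II keratins 7 and 8 with the type I keratins 18 and 19. The transcripts described here are 10 keratin genes taken by name, of 55 keratin rows and 48733 rows in all: 4 basal (*Krt5*, *Krt14*, *Krt15*, *Krt17*), 4 luminal (*Krt7*, *Krt8*, *Krt18*, *Krt19*), and *Krt10* and *Krt23*, which belong to neither set. All 10 passed the filter on low counts and were among the 13842 rows tested.

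They were measured by RNA sequencing of whole submandibular glands (SMGs) from 4 wildtype (WT) and 5 *Hs3st3a1*;*Hs3st3b1* double-knockout (DKO) adult male mice on a C57BL/6 background. The deleted genes encode 3-O-sulfotransferases, enzymes that add sulfate to heparan sulfate, and the DKO line was made by a zinc finger nuclease directed at exon 1 of *Hs3st3a1* in embryos heterozygous for the *Hs3st3b1* deletion. The deletions are in every cell of the animal, so that no cell type was targeted. Libraries held 17053747 to 37870519 counts. *Hs3st3a1* had 3 to 14 counts in each WT library and 0 in each DKO library, and *Hs3st3b1* had 4.49 ± 1.03 CPM, counts scaled to the library size, in the 4 WT mice (mean ± SD) and 1.02 ± 0.547 CPM in the 5 DKO mice, which goes with the labels. The 20 most abundant genes took 52.9% to 58.7% of the counts in WT and 59.4% to 70.3% in DKO. DKO replicate 4 had the lowest such share among the DKO libraries and is given apart below, since it lay nearest to WT for several keratins.

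Gene by gene, the differences between the genotypes did not follow the line between the basal and luminal sets. Taken as whole sets, the basal keratins were lower in DKO by slightly more than the luminal ones as a mean of log2 values (-0.11). The ranges of WT and DKO overlapped in that contrast, and its sign rested on DKO replicate 1. Its size also depended on the weighting of the members, as given below. Within each set, some members were lower in DKO and others had DKO values that overlapped with WT. *Krt14* and *Krt17* of the basal set and *Krt7* and *Krt19* of the luminal set were lower in DKO and passed a Benjamini-Hochberg adjusted p of 0.05 in DESeq2, a Wald test on the counts and the tool that the methods of the study name. The study also asked for a minimum fold change, which of these genes only *Krt19* reached (DESeq2 log2 fold change -1.13). The values of *Krt14*, *Krt17* and *Krt7* were -0.70, -0.87 and -0.46. None of the 10 passed in the main test here, edgeR's quasi-likelihood test, where their adjusted p lay between 0.0506 and 0.979. *Krt18*, by far the most abundant of the 10, and its partner *Krt8* had DKO values that overlapped with WT. In whole glands, fewer cells of a type and less RNA per cell cannot be told apart.

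In numbers, 0 of 10 keratins were called by edgeR, against 0.629% of all rows tested. At an unadjusted p under 0.05 the count was 5 of 10, against 14.5% of all rows. DESeq2 called 4 of 10, each lower in DKO, against 2.74% of all rows called lower, and limma-voom with sample quality weights called 1, *Krt17*, against 1.07% of all rows. With DKO replicate 4 left out, edgeR called 5 of 10 (*Krt5*, *Krt14*, *Krt17*, *Krt7* and *Krt19*), against 3.20% of all rows in that fit. That library was set apart because it lay nearest to WT for these keratins, so its omission favours such calls and is no support for them. With any other DKO library left out, edgeR called 0 of 10. In 3 of 10, *Krt17*, *Krt7* and *Krt19*, all 5 DKO libraries lay below all 4 WT libraries, as they did in 3.51% of all rows, and 0 of 10 had all DKO libraries above WT, against 2.49% of all rows. The log2 fold change of DKO over WT was below 0 in 8 of 10, against 47.5% of all rows tested. Its median was -0.62 in the basal set, -0.28 in the luminal set and 0.01 over all rows tested. These counts over members are a description, since the keratins were chosen with earlier results of these data known.

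Among the basal keratins, *Krt14*, the type I keratin of MECs and basal duct cells, was the most abundant. It lies on the minus strand of chr11:100203162-100207548 in GRCm38. Its level was 44.5, 28.9, 44.4 and 37.9 CPM in WT replicates 1 to 4, and 21.2, 24.2, 23.7, 30.4 and 19.9 CPM in DKO replicates 1 to 5. Only DKO replicate 4 reached the WT range, where it lay above WT replicate 2, and the other 4 DKO libraries were below every WT library. The DKO mean was 61.4% of the WT mean, with a log2 fold change of -0.70 ± 0.15 (SE; edgeR adjusted p = 0.0570, DESeq2 adjusted p = 0.0032), and the exact permutation test on log2 CPM gave p = 0.0238 (two-sided, over all splits of 9 libraries into 4 and 5). The edgeR call passed with WT replicate 2 left out, as it did without DKO replicate 4, and with no other library left out.

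*Krt17*, a type I keratin of basal cells and MECs, lies 49 kb from *Krt14* in the same cluster, at chr11:100256217-100261029 on the minus strand. It had 18.8, 14.1, 19.4 and 16.9 CPM in WT and 7.53, 9.25, 10.2, 13.2 and 6.96 CPM in DKO. The groups did not overlap, and DKO replicate 4 was again the DKO library nearest to WT. The DKO mean was 54.4% of WT, with a log2 fold change of -0.88 ± 0.18 (edgeR adjusted p = 0.0506, DESeq2 adjusted p = 0.0011). The exact permutation p was 0.0159.

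*Krt5*, the type II partner of keratin 14, lies at chr15:101707070-101712898 on the minus strand. It was measured at 7.99, 7.23, 9.37 and 8.63 CPM in WT and at 4.28, 5.84, 5.27, 8.499 and 4.79 CPM in DKO. DKO replicate 4 lay within the WT range and the other 4 DKO libraries below it. The log2 fold change was -0.53 ± 0.19, with an adjusted p of 0.220 in edgeR and 0.146 in DESeq2, and the exact permutation p was 0.0397. Without DKO replicate 4 the edgeR adjusted p of *Krt5* was 0.0314, and *Krt5* was not called by edgeR with any other library left out.

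*Krt15*, a type I keratin of basal progenitor cells in stratified epithelia, lies at chr11:100131758-100135928 on the minus strand and was close to the detection limit, with 17 to 33 counts per library. It had 0.803, 1.26, 0.486 and 1.42 CPM in WT and 0.791, 0.905, 0.779, 1.22 and 1.38 CPM in DKO. The DKO values lay inside the WT range. The log2 fold change of 0.04 ± 0.34 had an approximate 95% interval of -0.64 to 0.71, which holds the value of *Krt5*, so that a change of that size was not detectable at this depth.

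**Figure D1:**
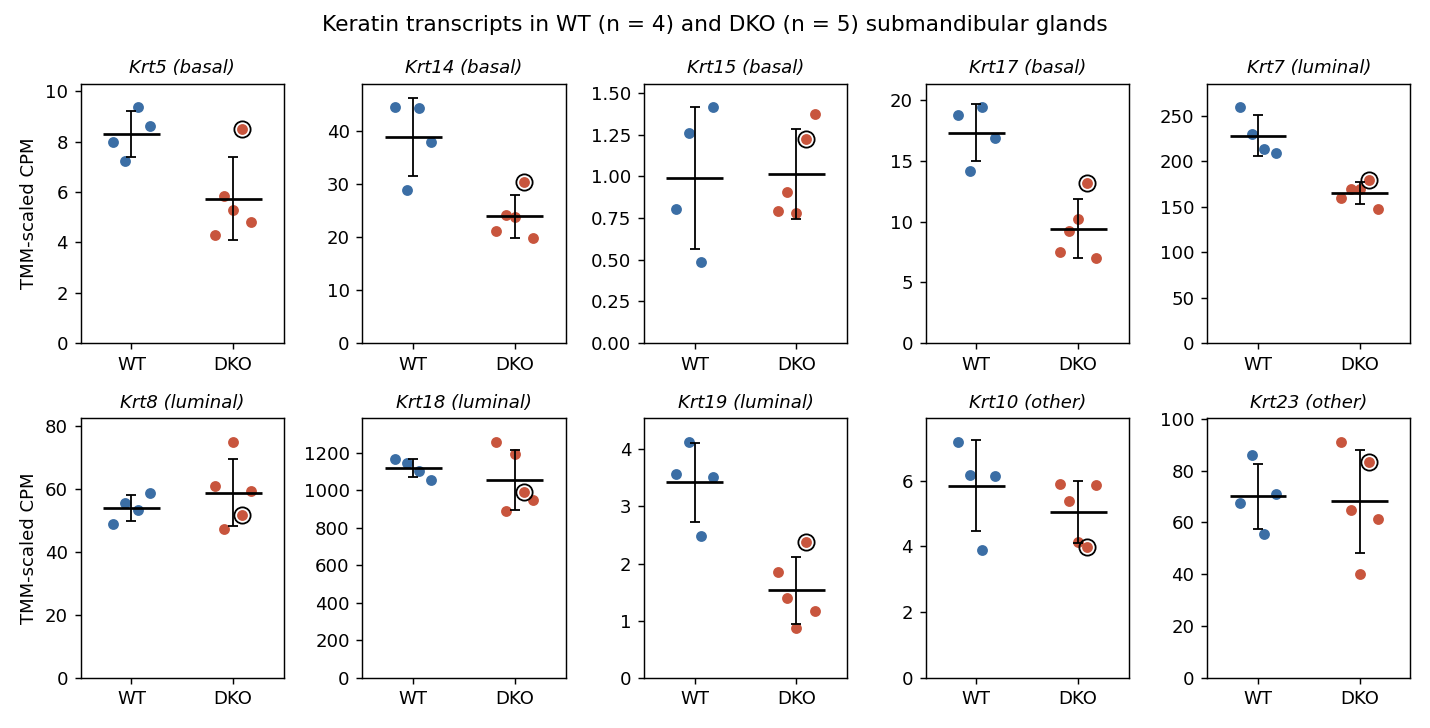
TMM-scaled CPM (y axes, linear, from 0) of the 10 keratins in each library, with the mean and SD of each genotype as black bars (WT n = 4, DKO n = 5). The ringed point is DKO replicate 4, which is the highest DKO library for *Krt5*, *Krt14*, *Krt17*, *Krt7* and *Krt19*; the groups are apart for *Krt17*, *Krt7* and *Krt19*.

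Among the luminal keratins, *Krt7*, the type II keratin of ducts, lies on the plus strand at chr15:101411043-101430313. It was measured at 260, 231, 214 and 209 CPM in WT and at 159, 169, 169, 180 and 148 CPM in DKO. Every DKO library was below every WT library, with an SD of 22.8 CPM between WT and 12.2 CPM between DKO libraries. The DKO mean was 72.3% of WT, with a log2 fold change of -0.47 ± 0.11 (edgeR adjusted p = 0.0618, DESeq2 adjusted p = 0.0011). The exact permutation p of 0.00794 is the smallest that the splits can give.

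*Krt19*, a type I keratin of duct cells that has no tail domain, lies at chr11:100140810-100148665 on the minus strand and was far less abundant, with 16 to 112 counts per library. Its level was 3.57, 4.13, 2.47 and 3.52 CPM in WT and 1.85, 1.40, 0.871, 2.37 and 1.16 CPM in DKO. No DKO library reached the lowest WT library, although DKO replicate 4 and WT replicate 3 were close. The fold change was the largest of the 10 in size, with a DKO mean of 44.7% of WT and a log2 value of -1.13 ± 0.28 (edgeR adjusted p = 0.0744, DESeq2 adjusted p = 0.0058, exact permutation p = 0.0159). Without WT replicate 1 the DESeq2 adjusted p of *Krt19* was 0.0508.

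*Krt18* is the type I partner of keratin 8, and although most type I genes lie on chromosome 11 it stands on chromosome 15, at chr15:102028180-102032027 on the plus strand, beside *Krt8* at chr15:101996698-102004482 on the minus strand. The level of *Krt18* was 1168, 1145, 1102 and 1056 CPM in WT and 1257, 887, 1193, 989 and 946 CPM in DKO. Libraries of DKO lay both above and below the whole WT range. The log2 fold change was -0.08 ± 0.14, with an approximate 95% interval of -0.36 to 0.19 (edgeR adjusted p = 0.852). *Krt8* had 48.9, 55.6, 53.4 and 58.8 CPM in WT and 60.9, 47.3, 75.1, 51.9 and 59.5 CPM in DKO. These groups overlapped as well, with a log2 fold change of 0.12 ± 0.13 and an interval of -0.14 to 0.38 (edgeR adjusted p = 0.750). The approximate intervals of both genes leave out the estimate of *Krt7* (-0.47). The interval of *Krt7* itself was -0.67 to -0.26, which overlapped with that of *Krt18* and not with that of *Krt8*.

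Of the keratins in neither set, *Krt23*, a type I keratin, lies at chr11:99477974-99493137 on the minus strand and ranged from 55.5 to 86.2 CPM in WT (median 69.3) and from 40.2 to 91.1 CPM in DKO (median 64.9). *Krt10*, the type I keratin of the suprabasal epidermis, lies at chr11:99385254-99389364 on the minus strand and ranged from 3.89 to 7.19 CPM in WT (median 6.17) and from 3.99 to 5.92 CPM in DKO (median 5.39). The ranges overlapped for both. Their log2 fold changes were -0.04 ± 0.21 and -0.20 ± 0.20, with edgeR adjusted p of 0.960 and 0.714.

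**Figure D2:**
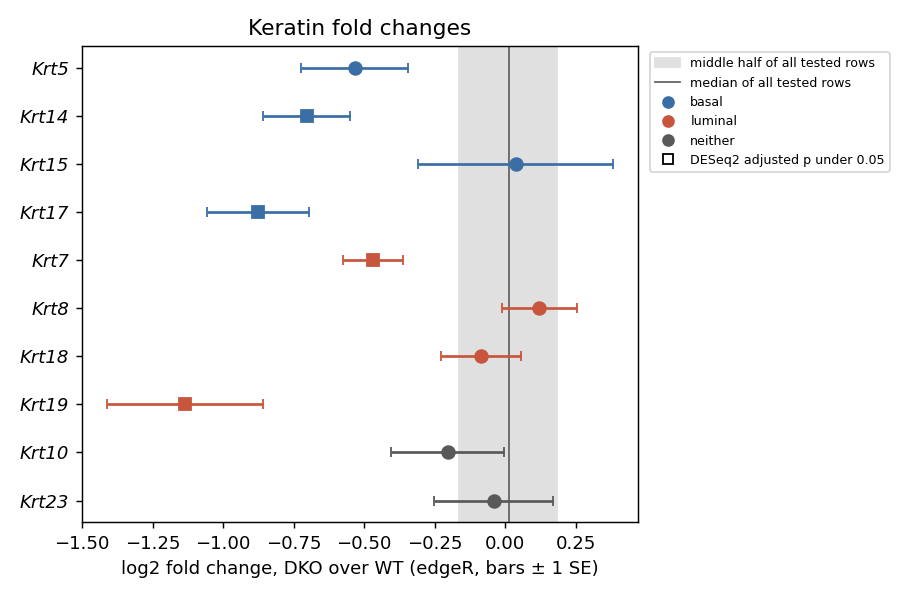
Log2 fold change of DKO over WT (x axis) of the 10 keratins, with 1 SE on each side, against the median (line) and the interquartile range (grey band) of the 13842 rows tested. Squares mark *Krt14*, *Krt17*, *Krt7* and *Krt19*, the 4 that DESeq2 called; they lie left of the grey band in both colours, while *Krt15*, *Krt8*, *Krt18* and *Krt23* lie inside it.

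The library scaling sets where 0 lies. With total counts in place of the TMM factors the median over all rows was -0.28 rather than 0.01, and the signs of *Krt8* (-0.19) and *Krt15* (-0.24) turned. Relative to that median their log2 fold changes were 0.09 and 0.04, and those of *Krt14*, *Krt17*, *Krt7* and *Krt19* were -0.70, -0.87, -0.47 and -1.09.

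Ratios within a library do not depend on that scaling, beyond the small count that is added before taking logs. The log2 ratio of *Krt7* to *Krt8*, both type II and luminal, was 2.07 ± 0.242 over the 4 WT libraries (mean ± SD) and lower by 0.57 over the 5 DKO libraries (difference -0.57), with 4 of 5 DKO libraries below all WT libraries. That of *Krt19* to *Krt18*, both type I and luminal, was -8.34 ± 0.292 in WT and -9.42 ± 0.595 in DKO, again with 4 of 5 below. The ratios of *Krt14* to *Krt5* and of *Krt18* to *Krt8*, each a type I gene with its type II partner, differed less. The log2 ratio of *Krt14* to *Krt5* was 2.20 ± 0.202 in WT and 2.07 ± 0.168 in DKO, and that of *Krt18* to *Krt8* was 4.37 ± 0.167 and 4.16 ± 0.169, and in both the ranges overlapped. For *Krt7* over *Krt19*, type II over type I and both luminal, the log2 ratio was 6.05 ± 0.281 in WT. In DKO it was 6.76 ± 0.503, with 3 of 5 libraries above all WT libraries. The log2 ratio of *Krt17* to *Krt14*, both type I and basal, was -1.15 ± 0.0915 in WT and -1.36 ± 0.143 in DKO. Here 3 of 5 DKO libraries were below all WT libraries. These ratios were chosen with the values of the members in view and carry no test.

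For the contrast of the sets, the mean log2 CPM of each set was taken per library and expressed relative to the WT mean. The basal score was 0.03, -0.11, -0.07 and 0.15 in WT and -0.79, -0.52, -0.58, -0.07 and -0.62 in DKO. The luminal score was 0.05, 0.10, -0.14 and -0.01 in WT and -0.25, -0.54, -0.43, -0.27 and -0.55 in DKO. The DKO libraries were below all WT libraries in the luminal score, and in the basal score all but replicate 4 were. The basal score minus the luminal score was 0.11 lower in DKO than in WT as a mean (-0.11), against an SD of 0.158 between WT and 0.274 between DKO libraries. The ranges overlapped, and DKO replicate 1, where the basal score was lowest, decided the sign, since the difference was 0.0012 without it. The value depends on how the members are weighted. Summing the CPM per kilobase of each set before taking logs, so that *Krt14* and *Krt18* dominate, gave -0.62, while taking the median over the keratins of a set gave -0.55.

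**Figure D3:**
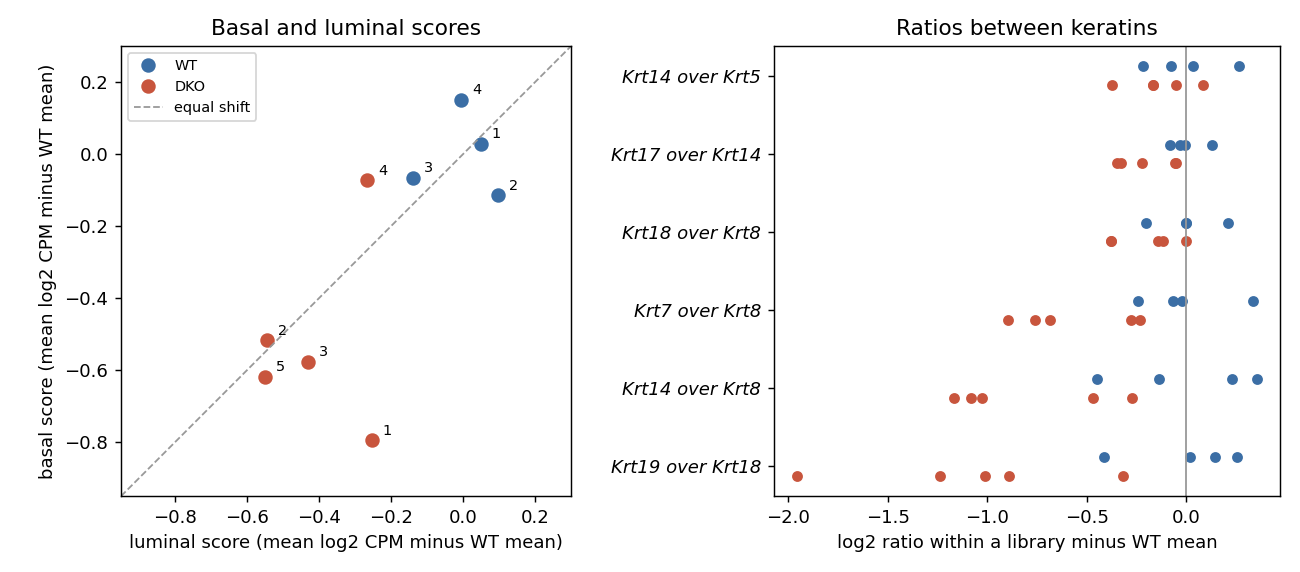
Left, basal score against luminal score of each library (mean log2 CPM of 4 keratins, relative to the WT mean; replicate numbers beside the points; the dashed line marks an equal shift of both). Right, log2 ratios between keratins within each library, relative to the WT mean; *Krt7* over *Krt8* and *Krt19* over *Krt18* have 4 of 5 DKO points below all WT points, while *Krt14* over *Krt5* and *Krt18* over *Krt8* overlap.

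Compared per length of the longest protein-coding transcript, *Krt18* stood at 778 ± 34.4 CPM per kilobase in WT (mean ± SD of 4) and made up 81.9% of the sum of the 10 as a mean of the percentages of the WT libraries and 83.8% as that of the DKO libraries. Next in WT came *Krt7* with 55.8 ± 5.58 and *Krt23* with 44.8 ± 8.08, whose ranges overlapped, and then *Krt8* with 27.7 ± 2.11 and *Krt14* with 22.9 ± 4.33, which overlapped as well. *Krt17* followed with 11.2 ± 1.53, apart from *Krt14* above it and *Krt5* below it. *Krt5* with 3.78 ± 0.415 overlapped with *Krt10* at 2.79 ± 0.666, and *Krt10* with *Krt19* at 2.17 ± 0.438. *Krt15* was lowest with 0.583 ± 0.251, apart from *Krt19*. In DKO the order was kept except that *Krt23* with 43.5 ± 12.8 had the higher mean than *Krt7* with 40.3 ± 2.97. The place of *Krt7* rests on the length used, since over all its annotated exons, 7049 bases, its WT level was 32.4 CPM per kilobase.

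The type I and type II messages were far from equal. Per kilobase, *Krt18* exceeded *Krt8* 28.3 ± 3.29-fold in WT and 24.6 ± 2.86-fold in DKO, and *Krt14* exceeded *Krt5* 6.05 ± 0.863-fold and 5.52 ± 0.654-fold. The level of *Krt8* is uncertain, because 29.7% of the stretches of 50 bases in its transcripts also occur in transcripts of other genes, chiefly the processed pseudogene *Krt8-ps*, and the way in which reads with several matches were counted is not given in the sources used here. That share was 13.9% for *Krt14* (*Krt16* and *Krt17*), 12.2% for *Krt5* (*Krt6a* and others) and 4.0% or less for the other 7. Of the keratins among these other genes, *Krt6a* and *Krt6b* had 0 counts and *Krt16* had 1 count over the 9 libraries. *Krt17*, which shares stretches with *Krt14*, had 3197 counts, and how reads common to both were assigned is not known.

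The stretches before a transcript start of 3 genes are shown because they represent a basal keratin with lower values in 4 of 5 DKO libraries (*Krt5*), a luminal keratin with lower values in 5 of 5 (*Krt7*) and a luminal keratin whose groups overlapped, the most abundant of the 10 (*Krt18*). They come from RefSeq (GRCm38.p6), which listed a promoter window for 7 of the 10 keratins, and end before the start of the longest protein-coding transcript in GENCODE. For *Krt7* this start lies inside the gene as given above, because other annotated transcripts of the gene start further upstream. They were searched on both strands for TATAAA (core promoter box), GGGCGG (the GC box, bound by SP1), TGANTCA (the AP-1 motif) and GCCNNNGGC (the AP-2 motif), and matches are in capitals, where overlapping matches run together. The coordinates are chr15:101712906-101713155 on the minus strand for *Krt5*, chr15:101412153-101412401 on the plus strand for *Krt7* and chr15:102027966-102028179 on the plus strand for *Krt18*.
Krt5: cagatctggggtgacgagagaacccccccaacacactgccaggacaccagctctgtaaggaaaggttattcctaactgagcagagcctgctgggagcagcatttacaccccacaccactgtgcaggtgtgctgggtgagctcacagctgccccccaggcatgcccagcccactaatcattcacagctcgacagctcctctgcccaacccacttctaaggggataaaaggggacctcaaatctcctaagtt
Krt7: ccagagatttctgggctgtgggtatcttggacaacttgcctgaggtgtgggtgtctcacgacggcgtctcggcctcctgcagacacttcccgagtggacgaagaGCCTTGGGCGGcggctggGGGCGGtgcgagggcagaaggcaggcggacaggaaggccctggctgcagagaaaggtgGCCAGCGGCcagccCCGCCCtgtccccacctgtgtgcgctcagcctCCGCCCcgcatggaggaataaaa
Krt18: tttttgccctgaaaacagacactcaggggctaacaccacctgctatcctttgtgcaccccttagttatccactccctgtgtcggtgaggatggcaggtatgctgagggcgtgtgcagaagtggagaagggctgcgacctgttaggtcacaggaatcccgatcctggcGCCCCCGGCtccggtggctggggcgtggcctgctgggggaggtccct
The *Krt7* stretch held 4 GC boxes, a motif found in 32.6% of all promoter stretches of the same length, and 2 AP-2 matches, found in 13.6%. The *Krt18* stretch held 1 AP-2 match, found in 11.5%, and the *Krt5* stretch held none of the 4 motifs. The first and the third of these motifs were absent from these 3 windows. A match is a description of the letters and not a binding site.

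Of the other 45 keratin rows, 18 had no count and 25 had 1 to 51 counts over all 9 libraries. The 2 with enough counts to be tested were *Krt80*, a type II keratin, and *Krt8-ps*. *Krt80* had 5.67, 4.66, 5.48 and 4.38 CPM in WT and 3.22, 2.18, 1.79, 3.32 and 1.67 CPM in DKO. Its groups did not overlap, and its log2 fold change of -1.03 ± 0.22 had an edgeR adjusted p of 0.0568 and a DESeq2 adjusted p of 0.0015. *Krt8-ps* had 1.17 ± 0.218 CPM in WT and 1.36 ± 0.410 in DKO (edgeR adjusted p = 0.781). The next in level were *Krt36*, *Krt87* and *Krt75*, with 51, 40 and 29 counts over all 9 libraries. Of 17 markers of stratified squamous epithelium (epidermis and oral lining), 0 passed the filter and 8 had no count, among them *Krt2*, *Krt76*, *Flg* and *Ivl*, and their sum was 0.331 to 0.893 CPM in WT and 0.474 to 0.596 CPM in DKO. The highest of them were *Sbsn* and *Lypd3*, with 61 and 36 counts in all.

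The keratin levels are given beside those of the cells that carry them. All 7 contractile markers of MECs were lower in every DKO library than in every WT library, and edgeR called 5 of them. *Acta2*, smooth muscle actin, had 489 ± 86.3 CPM in WT and 232 ± 72.9 in DKO, *Cnn1*, calponin, had 120 ± 21.9 and 47.1 ± 20.2, and *Tpm2*, a tropomyosin, had a log2 fold change of -1.09 ± 0.14 (edgeR adjusted p = 0.0312). The sum of the 7 was 694 to 1109 CPM in WT and 259 to 613 CPM in DKO. Their mean log2 CPM was lower in DKO by more than that of any basal keratin: relative to it, *Krt14* was 0.53 ± 0.37 higher in DKO than in WT, and higher in 5 of 5 DKO libraries than in any WT library, *Krt5* was 0.67 ± 0.37 higher (4 of 5) and *Krt17* 0.33 ± 0.46 higher (3 of 5; SD over DKO libraries). DKO replicate 4, the DKO library with the highest basal score, also had the highest MEC score among the DKO libraries (-0.68, others -1.88 to -1.09). That library was nearest to WT in other lists as well. Among the DKO libraries it had the highest score of the granular duct markers described below (-1.22, others -4.17 to -1.57). Its score of acinar markers was the lowest of them (0.346, others 0.349 to 0.941). The part of the MEC markers in the basal keratin values was not tested.

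Granular ducts, the androgen-dependent duct segment that stores growth factors and kallikreins in male mice, are lined by luminal cells. All 9 of their markers were lower in every DKO library than in every WT library, with a median log2 fold change of -2.01, and DESeq2 called all 9 while edgeR called 0 (adjusted p of 0.0513 to 0.0933). *Klk1b26* had 35179 ± 11289 CPM in WT and 10999 ± 5311 in DKO, and *Klk1b9* had 14182 ± 6110 and 3198 ± 1815. The sum of the 9 was 45671 to 112951 CPM in WT and 5890 to 35917 CPM in DKO. Kallikrein genes are close copies of each other, so the split of reads among them is uncertain. Acinar markers, from cells that also carry keratins 8 and 18, had log2 fold changes above 0 in 8 of 8 tested, with a median of 0.58, and 0 were called by edgeR and 3 by DESeq2. *Car6* had 71645 ± 16295 CPM in WT and 145765 ± 45057 in DKO, *Prol1* had 45921 ± 11058 and 79430 ± 15821, and the sum of the list was 110154 to 178477 CPM in WT and 196360 to 364812 CPM in DKO. The part of either cell type in the luminal keratin values was not tested.

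Of 8 markers of striated ducts and ionocytes, 6 were below 0 and 2 above, and edgeR called 0 and DESeq2 called 2. *Klk1* had 6947 ± 2217 CPM in WT and 10414 ± 1011 in DKO, and *Scnn1b*, a subunit of the epithelial sodium channel, had 196 ± 21.7 and 114 ± 35.9, with edgeR adjusted p of 0.256 and 0.126. Their sum was 5703 to 10467 CPM in WT and 9595 to 12023 CPM in DKO. Of 7 markers of intercalated ducts 0 were called, with *Kit* at 23.9 ± 7.35 and 26.8 ± 5.41 CPM, *Dcpp1* at 4.68 ± 6.76 and 26.2 ± 41.5 CPM (close copies of *Dcpp1* make its split of reads uncertain), and a sum of 35.0 to 103 CPM in WT and 40.7 to 198 CPM in DKO. Lists for other tissue that a dissected gland could carry were low. The sum over mesothelium markers, whose cells carry keratins 8, 18 and 19, was at most 0.306 CPM in WT and 0.458 CPM in DKO, with *Wt1*, *Upk3b* and *Lrrn4* at 0 and *Msln* and *Upk1b* at 44 and 6 counts in all. The sum was at most 1.61 CPM for lymphocyte markers (highest *Cd79a* and *Cd3g*), 6.28 CPM for adipocyte markers (highest *Fabp4* and *Cidec*) and 7.99 CPM for skeletal muscle markers, where *Ckm* had 1.58 ± 0.572 and 2.48 ± 0.534 CPM and *Acta1* was the single gene called by edgeR (3.48 ± 1.79 CPM in WT, 0.287 ± 0.178 in DKO, adjusted p = 0.0385).

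Keratin filaments end on desmosomes, which join cells, and on hemidesmosomes, which hold cells to the basement membrane. Of 15 genes of these anchors, 14 had a row and all 14 were tested. None was called by edgeR, with 9 below 0, 5 above 0 and a median log2 fold change of -0.16. *Perp*, a desmosomal membrane protein, had 213 ± 16.5 CPM in WT and 219 ± 22.7 in DKO, and *Jup*, plakoglobin, had 134 ± 8.26 and 133 ± 15.02. DESeq2 called 1, *Plec*, plectin, which links keratins to hemidesmosomes (86.5 ± 10.1 and 65.9 ± 4.75 CPM, edgeR adjusted p = 0.0992); it is named after its values were seen. The intermediate filament genes other than keratins had 11 of 16 tested, with a median of -0.04, and 0 were called by edgeR. *Lmna*, lamin A/C of the nuclear lamina, had 67.5 ± 6.22 and 68.1 ± 10.9 CPM, and *Vim*, vimentin of mesenchymal cells, had 13.2 ± 1.79 and 9.54 ± 1.88 CPM (edgeR adjusted p = 0.193). DESeq2 called 1, *Synm*, synemin, a filament protein of muscle-like cells (3.79 ± 1.16 and 1.40 ± 0.616 CPM, edgeR adjusted p = 0.0625), also named after its values were seen.

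Transcription factors of epithelia were not called by either tool, 0 of 12 tested, with 6 below 0, 6 above 0 and a median of -0.01. *Ehf* had 161 ± 9.54 CPM in WT and 166 ± 15.3 in DKO, and *Grhl1* had 48.8 ± 7.81 and 45.3 ± 10.3. *Trp63*, which encodes p63, the factor of basal cells that drives *Krt5* and *Krt14* in skin, is added after its values were seen, with 4.91 ± 0.900 and 4.495 ± 0.782 CPM and a log2 fold change of -0.12 ± 0.18 (edgeR adjusted p = 0.822).

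**Figure D4:**
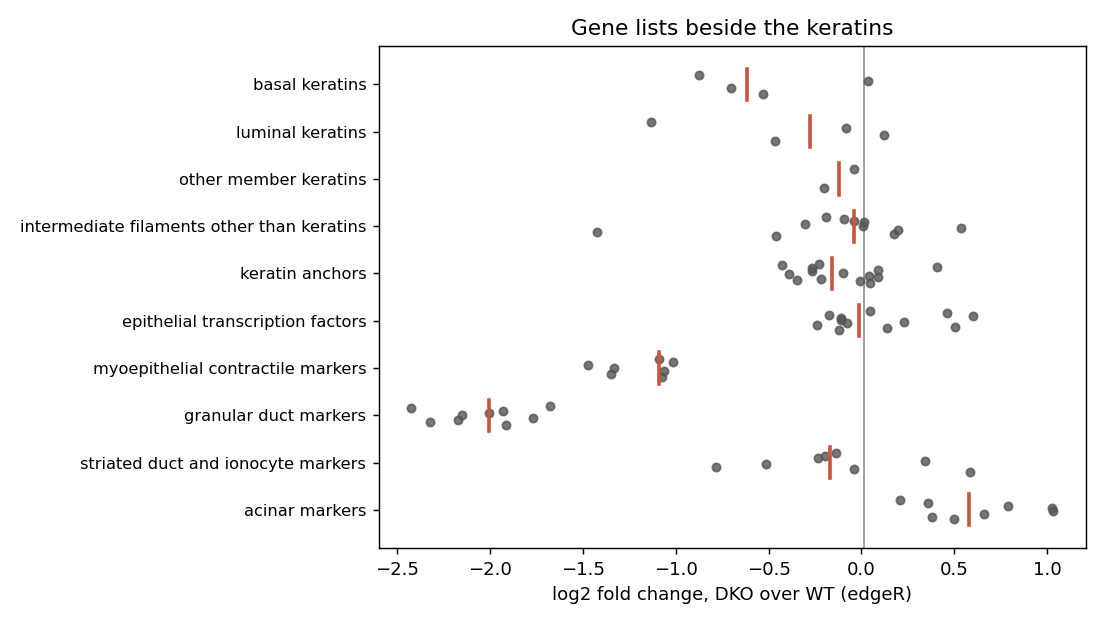
Log2 fold change of DKO over WT (x axis, edgeR) of each tested gene (points) in 10 of the gene lists, with the median of each list as a vertical bar and the median of all rows as a grey line. The keratin sets spread from the luminal *Krt19* to slightly above 0. Among the keratins shown, *Krt19* alone lies within the range of the MEC contractile markers, and all basal keratins lie right of that range. Anchors, other intermediate filaments and transcription factors centre near 0.

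The genes whose log2 CPM was most like the basal score over the 9 libraries were *Stxbp5l* (Pearson r = 0.97), *Ppp2r2c* (0.96), *Arl5b* (0.96), *Tubb2b* (0.96) and *Tlcd3a* (0.96). Most like the luminal score were *Tmem138* (0.97), *Duoxa2* (0.95), *Rnf208* (0.94), *Tnnt2* (0.94) and *Eva1a* (0.93). After subtraction of each genotype's mean the values were 0.88 to 0.95 for the first 5 genes and 0.74 to 0.87 for the others. They are the highest of 13832 candidates over 9 points that share libraries and scaling, and are given as a description.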

How the data were processed

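SMG RNA of male mice was made into Nextera XT libraries, 1 for each animal and without strand information, and read on a HiSeq2500. The submitters' processing notes name STAR 2.5.2a, GRCm38, DESeq2, edgeR and limma; counting settings are not given in the sources used here. The authors deposited raw read counts per gene on 48733 rows, the same counts for 17562 filtered rows, and TMM-scaled CPM, a signal that gave back whole reads for 158058 of 158058 values (100%, within 0.001). Rows naming no gene (24) held under 0.0002% of counts per library.

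The main test was run in edgeR 4.0.16 under R 4.3.3 (TMM, filterByExpr with minimum count 10 and total 15, legacy quasi-likelihood test, 13842 rows, Benjamini-Hochberg over all). Standard errors are the log2 fold change over the square root of F, and 95% intervals reach 1.96 SE to either side. DESeq2 1.42.0 and limma 3.58.1 were alternatives. Scores used log2 CPM with a prior count of 2. The test scripts were tested on simulated data. Summaries used Python 3.11.15, and lengths and shared stretches GENCODE M21.

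Labels gave the groups by genotype and name separate mice. The members and lists were chosen with earlier results of these data known. The text names all members, the 5 highest other keratins and any called, the 2 highest genes of each list and up to 4 called, and the 5 genes most like each score. Female data were not analysed here.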

Additional observations from a re-analysis of the deposited data

Results flagged for a closer look

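In each keratin, the values of the 4 WT and of the 5 DKO libraries were searched for a library far from the others by the gap to its neighbour over the range (Dixon). Of 20 groups searched, 0 held such a library, where chance gives about 1 in 20.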

How the results depend on the processing

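The main limits are the 4 and 5 mice, the low counts of *Krt15* and *Krt19*, and the reads that *Krt8* may share. The count of keratins called was 0 in edgeR and with RLE or upper-quartile factors, the newer fit, the authors' filtered table (where edgeR called 13 of 17562 rows) and the replicate block. It was 3 with total counts, 4 with DESeq2, 1 with limma-voom and 3 with no filter. Leaving out 1 library gave 0 to 5 in edgeR and 3 to 5 in DESeq2 (added after seeing the data). In edgeR, omitting DKO replicate 4 gave 5, omitting WT replicate 2 gave 2 and omitting any other gave 0. Over all rows edgeR called 87, DESeq2 617, limma-voom 148, no filter 347, total counts 357, upper-quartile factors 5, the block 0, and 0 to 441 with 1 library left out.

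The median log2 fold change of the basal set was -0.89 with total counts and -0.76 to -0.54 with 1 library left out, and of the luminal set -0.56 with total counts. The basal minus luminal difference was -0.55 with medians, -0.62 with summed CPM per kilobase, -0.18 to 0.0012 with 1 library left out, and, added after seeing the data, -0.36 without *Krt19* and -0.57 without *Krt15* and *Krt19*. The number of keratins with an exact permutation p under 0.05 was 5, and 3 to 5 with 1 library left out. It was 3 without DKO replicate 1, 2, 3 or 5. The share of all rows that pass this test is not given here, so the count describes these members only.

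*Krt15* changed sign to -0.24 with total counts, -0.030 with the replicate block and ranged from -0.22 to 0.27 with 1 library left out, *Krt8* to -0.19 with total counts, and *Krt23* to 0.0061 with limma-voom and ranged from -0.17 to 0.10 with 1 library left out. The shared replicate numbers were not taken to pair the mice, since no label states a pair. Deviations of same-numbered libraries correlated at 0.15, 0.30, 0.07 and 0.01, and 2 of 4 WT libraries were closest to their own number. So few correlations cannot exclude a pairing. The paper compares DKO mice with WT littermates, but the labels give no litter or cohort beyond numbers in the sample titles, and neither was modelled. The replicate block gave medians of -0.58 (basal) and -0.24 (luminal) and a basal minus luminal difference of -0.12.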
